A study of Brassica rapa subsp. pekinensis with 6 samples.

Results

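The miR156/miR157 and miR172 families were examined in small RNA libraries of germinated Chinese cabbage (Brassica rapa) seeds. Their members were taken as every row of the deposited miRNA table named miR156, miR157 or miR172, or MIR156, MIR157 or MIR172 for the hairpin arms, whatever the species prefix or suffix, and each mature sequence was counted once with its rows added. This gave 41 mature sequences, 31 of miR156/miR157 and 10 of miR172, out of 889 in the table, on 60 of its 1159 rows. The Ver group was germinated at room temperature and then vernalized at 4 °C for 25 days in the dark, whereas the Nor group stayed at room temperature for 48 h, also in the dark, without cold. Both groups were the double haploid line FT, and each of the 3 libraries per group came from the pooled seeds of a culture dish. The seeds were collected at equal length, so cold, time and seedling age cannot be told apart here. Whole seeds were extracted, and fewer cells of a type and less RNA per cell cannot be told apart either.

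In Arabidopsis, miR156 and the closely related miR157 bind the mRNAs of SPL transcription factors and keep the young plant in its juvenile phase, and their level falls as the plant ages. SPL proteins activate miR172 genes, and miR172 acts on AP2-like repressors of flowering, so the families mark opposite ends of the age pathway. Each plant miRNA is cut from a hairpin as a duplex of a 5p and a 3p strand. The guide, which enters the silencing complex, is the 5p strand in miR156/miR157 and the 3p strand in miR172, while the opposite strand is usually degraded.

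The sequences on which the results turn are printed as deposited, from the 5′ end and with T for U, and the capitals mark the seed, bases 2 to 8. The 5p sequences of miR156/miR157 were shown first to set the shared guide beside the miR157 guide and a form that starts further upstream, which shifts the seed.
bra-miR156a-5p: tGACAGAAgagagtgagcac
bna-miR156b, which is also listed as ath-miR157a-5p: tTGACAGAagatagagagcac
mtr-miR156b-5p_L+2: tTTGACAGaagagagtgagcac
mtr-miR156j_R+1_1ss12GA: tGACAGAAgagagtgagcacc

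The 3p sequences of miR156/miR157 are shown because they differ by hairpin and fall into seed groups.
bra-miR156b-3p: gCTCACTCtctatctgtcacc
bra-miR156a-3p: gCTTACTCtctctctgtcacc
bra-miR156c-3p_1ss11CT: gCTCACTGctttatctgtcaga
bra-miR156f-3p_L-1: gCTCACTGctctttctgtcaga
bna-MIR156d-p3: gCTCACTGctctatctgtcagg
bra-miR156e-3p: tGCTCACCtctctttctgtcagt
ath-miR157a-3p: gCTCTCTAgccttctgtcatc

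The miR172 sequences are shown to set the guides, which share a seed, beside a pair of sequences that carry the family's name but not its seed.
bra-miR172a: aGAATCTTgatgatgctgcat
bra-miR172d-3p: gGAATCTTgatgatgctgcat
bra-miR172c-3p: aGAATCTTgatgatgctgcag
nta-MIR172e-p3_2ss14CG18TA: tTGGAACGatacagagaa
nta-MIR172f-p3_2ss15CG19TA: aTTGGAACgatacagagaa

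In these names the prefix gives the species of the miRBase entry, bra for B. rapa and ath for Arabidopsis, L and R give bases gained or lost at an end, ss gives substitutions against the entry, and p3 or p5 marks an arm that miRBase did not hold. The guides bra-miR172a and bra-miR172d-3p differ by the substitution A1G, counted from the 5′ end with the base of bra-miR172a first, and bra-miR172a and bra-miR172c-3p differ by T21G. Among the 3p sequences with the seed CTCACTG, bra-miR156c-3p_1ss11CT and bra-miR156f-3p_L-1 differ by T11C and A13T. The sequences bra-miR156a-3p and bra-miR156b-3p differ by T4C, which lies in the seed, and C12A.

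The libraries held 771529, 589061 and 599329 miRNA reads in Ver 1 to 3, against 968483, 751398 and 749852 in Nor 1 to 3. Of the 889 sequences, 405 passed the count filter and were tested, and Pearson's r of log2 levels across these sequences was 0.94 to 0.97 within groups and 0.78 to 0.81 between them, as a description across sequences that are not independent. An edgeR adjusted p under 0.05 was called, which took in 61% of all tested sequences, 28.1% higher and 32.8% lower in Ver. Of the 41 members, 25 were tested and 14 were called, 11 higher and 3 lower in Ver, with a median log2 fold change (Ver over Nor) of 0.31, against -0.19 over all tested sequences. The share of members called was therefore near that of the table as a whole. The 16 members that did not pass the filter held at most 26 reads in any library.

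The miR156/miR157 family took a large share of all miRNA reads in both groups, and its total moved less than several of its 3p sequences did. The family held 9.57, 8.69 and 9.46% of the miRNA reads in Ver, against 10.9, 11.2 and 10.7% in Nor, a mean of 9.24 ± 0.48% in Ver and 10.9 ± 0.25% in Nor (SD, n = 3 each). These shares did not overlap. After TMM scaling of the libraries the log2 fold change of the family sum was -0.17 (edgeR adjusted p = 0.122, SE 0.09), so it was not called, where 62.9% of the 186 families and predicted sequences tested were. The result depended on the scaling: with library totals alone the sum was called lower (-0.24, edgeR adjusted p = 0.000492), and with DESeq2 size factors its sign turned (0.08, edgeR adjusted p = 0.563). It was also called lower without Ver 3 (-0.28) and without Nor 3 (-0.24), and its sign turned without Nor 2 (0.05).

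Most of the family was a single sequence, the guide bra-miR156a-5p, which made up 57.4% of all miR156/miR157 reads. It is listed with 6 hairpins, and because its sequence is identical in each, its reads cannot be assigned to any of them. Its level was 55575, 47527 and 60859 RPM in Ver, against 57793, 66417 and 60320.4 RPM in Nor, where RPM is reads per 1000000 of the TMM-scaled miRNA reads of a library. The groups overlapped, since Ver 3 lay above Nor 1 and Nor 3. The log2 fold change was -0.17 (edgeR adjusted p = 0.126, SE 0.09), it was 0.00 without Ver 2, the lowest library, and it was called lower with library totals alone (-0.19, edgeR adjusted p = 0.0279). No call of the guide held across scalings.

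The 3p strands of the family did change, and in opposite directions. Of the 9 miR156/miR157 3p sequences tested, 5 were called higher in Ver, 2 were called lower and 2 were not called. Of all tested sequences, 28.1% were called higher and 32.8% lower. The 6 hairpins of the guide carry 5 different 3p sequences, so the reads of these can be placed at a hairpin, except that MIR156B and MIR156D share bra-miR156b-3p. The 4 other tested 3p sequences are listed at other loci, and of them ath-miR157a-3p is listed at 2. The coordinates below are those of the deposited table, they span the precursor, and the hairpins named MIR156 or MIR172 overlap genes of that name in the RefSeq annotation of the CAAS_Brap_v3.01 assembly.

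The largest drop among the members was in bra-miR156b-3p, the 3p strand of MIR156B (A06:22681820-22681941, plus strand) and MIR156D (A06:22682069-22682165, plus strand), which lie 127 bases apart inside a gene annotated as protein-coding. It had 5814, 5438 and 5984 RPM in Ver, against 21064, 22622 and 22536 RPM in Nor. Every Ver library lay far below every Nor library, and the log2 fold change was -1.94 (edgeR adjusted p = 3.23e-08, SE 0.07), or 3.84 times higher in Nor. The 3p strand of MIR156A (A02:2063724-2063851, plus strand), bra-miR156a-3p, was lower as well, with 4588, 4061 and 4559 RPM in Ver, against 6147, 6503 and 6250.4 RPM in Nor. Its groups did not overlap and its log2 fold change was -0.52 (edgeR adjusted p = 0.000189, SE 0.07).

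The 3 tested sequences with the seed CTCACTG were all called higher in Ver. The most abundant was bra-miR156c-3p_1ss11CT from MIR156C (A03:29936420-29936529, minus strand, overlapping a long non-coding RNA gene), with 12585, 12639.6 and 11816 RPM in Ver, against 5949, 5583 and 5947 RPM in Nor. Its log2 fold change was 1.08 (edgeR adjusted p = 5.63e-07, SE 0.06). From MIR156F (A09:38717113-38717289, plus strand), bra-miR156f-3p_L-1 had 5698, 5939 and 5902 RPM in Ver, against 3736, 3927 and 3940.0 RPM in Nor, and a log2 fold change of 0.60 (edgeR adjusted p = 3.14e-05, SE 0.06). From a hairpin on A01 (A01:2934769-2934878, plus strand) that overlaps a protein-coding gene, bna-MIR156d-p3 had 593, 660.4 and 696 RPM in Ver, against 335, 340.5 and 330.2 RPM in Nor. Its log2 fold change was 0.95 (edgeR adjusted p = 2.61e-05, SE 0.10), and in each of these sequences the lowest Ver library lay above the highest Nor library.

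The remaining 3p strands moved little or were rare. From MIR156E (A08:14239187-14239305, minus strand), bra-miR156e-3p had 261, 223 and 246 RPM in Ver, against 188, 168 and 197 RPM in Nor, with a log2 fold change of 0.40 (edgeR adjusted p = 0.019, SE 0.12). Without Nor 2 that call was lost (edgeR adjusted p = 0.0509, log2 fold change 0.40), as it was in DESeq2 (DESeq2 adjusted p = 0.17, log2 fold change 0.47). The miR157 3p strand listed on A02 and A07, ath-miR157a-3p, had 1186, 1088 and 1447 RPM in Ver, against 1079, 1188 and 1163 RPM in Nor. Its groups overlapped and it was not called (0.12, edgeR adjusted p = 0.386, SE 0.11), though it was called higher without Ver 2 (0.28, edgeR adjusted p = 0.0375). The sequence bna-MIR156c-p3, from A01, had 119, 185 and 144 RPM in Ver, against 129.6, 113 and 117 RPM in Nor, and was called higher only when Ver 1 was left out (0.31 with all libraries, edgeR adjusted p = 0.172, and 0.51 without it). The 18-base bna-MIR156b-p3 is listed at a hairpin on A03 that also lists the miR157 guide. It had 15, 25 and 22 reads in Ver, against 7, 5 and 0 reads in Nor. This sequence was called higher (2.76, edgeR adjusted p = 0.00991, SE 0.74). A listed 0 can stand for up to 5 reads, so the size of that change is loosely fixed.

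**Figure D1:**
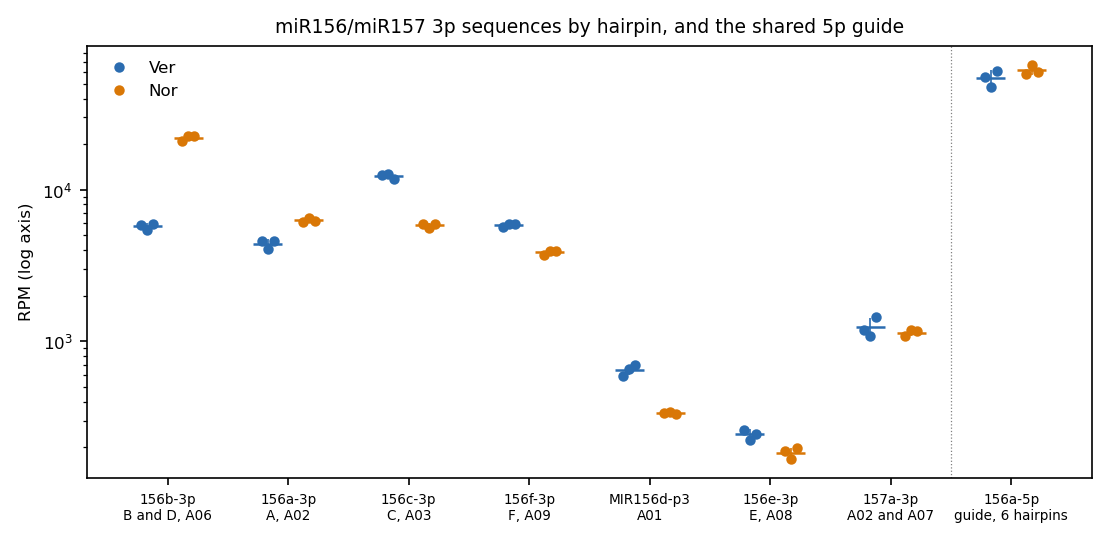
Level in RPM (log axis) of the 7 most abundant miR156/miR157 3p sequences, labelled with their hairpin and chromosome, and of the shared 5p guide, in the 3 Ver (left, blue) and 3 Nor (right, orange) libraries. Points are libraries and lines the mean and SD; bra-miR156b-3p and bra-miR156a-3p lay lower in every Ver library, the sequences from the C, F, E and A01 hairpins lay higher, and the guide and ath-miR157a-3p overlapped.

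The make-up of the 3p reads differed between the groups. Within the 3p reads of miR156/miR157, bra-miR156b-3p took 18.8, 17.9 and 19.4% in Ver, against 54.5, 55.9 and 55.7% in Nor. The 5 sequences with the seed CTCACTG took 61.1, 63.5 and 59.5% in Ver, against 25.9, 24.4 and 25.2% in Nor. The most abundant 3p strand was thus bra-miR156c-3p_1ss11CT in Ver and bra-miR156b-3p in Nor, and the ratio of their reads was 2.16, 2.32 and 1.97 in Ver, against 0.28, 0.25 and 0.26 in Nor. This pair was chosen after its values were seen. The difference of the log2 ratios was 3.03 with no overlap between groups, and the two-sided exact permutation p was 0.1, the smallest that 3 against 3 libraries allow. Because such a ratio is taken within a library, it does not depend on how the libraries are scaled.

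Summed over all sequences, the 3p arm held 3.12, 3.09 and 2.94% of miRNA reads in Ver, against 4.07, 3.97 and 4.01% in Nor. The 5p arm held 6.45, 5.602 and 6.52% in Ver, against 6.82, 7.24 and 6.71% in Nor. The arm fits gave a log2 fold change of -0.19 for 3p (edgeR adjusted p = 0.025, SE 0.06) and 0.04 for 5p (edgeR adjusted p = 0.688, SE 0.10). These fits have TMM factors of their own, so their values are not on one scale with those of the family sum or of single sequences. With library totals alone the log2 fold changes were -0.24 for the family sum, -0.40 for 3p and -0.16 for 5p. The 3p call was lost without Nor 1 (-0.19, edgeR adjusted p = 0.0903) and without Nor 2 (-0.08, edgeR adjusted p = 0.208), and the 5p sign varied with the setting. The 5p sum was called lower with library totals alone (-0.16, edgeR adjusted p = 0.0369) and higher without its most abundant sequence (0.25, edgeR adjusted p = 0.0152). The 3p share of the family was 33.1 ± 2.3% in Ver and 36.7 ± 1.1% in Nor (SD, n = 3 each) with overlapping groups and an exact permutation p of 0.2 (adjusted p = 0.25 over 10 ratios and shares).

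Among the 12 tested 5p sequences, 3 were called higher in Ver, 1 was called lower and 8 were not called, beside 28.1% higher and 32.8% lower of all tested sequences. The miR157 guide, listed both as bna-miR156b and as ath-miR157a-5p at 3 hairpins on A02, A03 and A07, had 7235, 6603 and 7066 RPM in Ver, against 5684, 6129 and 6019.9 RPM in Nor. Every Ver library lay above every Nor library, by a small amount (log2 fold change 0.23, edgeR adjusted p = 0.0147, SE 0.07, and 0.35 without Ver 2). Sequences with a listed miR157 name, this one among them, were counted as miR157 and the rest as miR156. The rest include mtr-miR156e_L-1R+1 and bna-MIR156b-p3, which are listed at loci of the miR157 guide. The ratio of miR156 to miR157 reads was 10.2, 10.1 and 10.7 in Ver, against 14.3, 14.6 and 14.1 in Nor. The groups did not overlap, with a difference of -0.47 on the log2 scale and an exact permutation p of 0.1 (adjusted p = 0.167 over 10).

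Fitted apart, the miR156 sum had a log2 fold change of -0.22 (edgeR adjusted p = 0.0391, SE 0.08) and the miR157 sum one of 0.25 (edgeR adjusted p = 0.0263, SE 0.09). Neither call was stable. The miR156 call was lost without Ver 2 (-0.16, edgeR adjusted p = 0.053) and without Nor 2 (-0.05, edgeR adjusted p = 0.622), it was -0.34 without Ver 3, and its sign turned with DESeq2 size factors (0.04). The miR157 call was lost without Ver 1 (0.20), Ver 3 (0.16), Nor 1 (0.14) or Nor 3 (0.19), with edgeR adjusted p from 0.101 to 0.168, and without Nor 2 the value was 0.40.

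The other 5p sequences differ from these guides at their ends or in their bases, and several, such as ath-miR156j, are listed at loci of their own. The form with an extra 3′ base, mtr-miR156j_R+1_1ss12GA, listed on A01 and at MIR156E on A08, had 546, 466 and 390.3 RPM in Ver, against 1016, 758 and 1070.3 RPM in Nor. It was the only 5p sequence called lower, with a log2 fold change of -1.02 (edgeR adjusted p = 0.000418, SE 0.16). The form that starts further upstream, mtr-miR156b-5p_L+2, had 22, 26 and 27 reads in Ver, against 9, 6 and 0 reads in Nor. It was called higher (2.71, edgeR adjusted p = 0.00753, SE 0.69), but as a listed 0 can stand for up to 5 reads, the size is loosely fixed. With 52.6, 41.6 and 54.5 RPM in Ver, against 33.4, 25.8 and 14.8 RPM in Nor, sbi-miR156e_L+1 was called higher too (0.99, edgeR adjusted p = 0.0341, SE 0.35). That call was lost when Ver 1, Ver 3, Nor 2 or Nor 3 was left out, with log2 fold changes of 0.997, 0.978, 1.05 and 0.77 and edgeR adjusted p from 0.072 to 0.0872.

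The 7 remaining 5p sequences that were tested had 0 to 178 reads in a library and were not called. The edgeR adjusted p was 0.16 for gma-miR156a_1ss20CT (log2 fold change -0.41), 0.106 for ath-miR156h_L+1 (-0.76) and 0.447 for aly-miR156a-5p_R+3 (-0.43). It was 0.155 for cme-miR156a_L+1R+1 (0.81), 0.0826 for mtr-miR156e_L-1R+1 (1.16) and 0.406 for ath-miR156j (-0.78). Of these, ath-miR156h_L+1 had levels that came close but did not overlap, with 23.1, 16.6 and 22.9 RPM in Ver, against 33.4, 48.8 and 24.3 RPM in Nor. Leaving out a library brought a call for gma-miR156a_1ss20CT (without Nor 2, -0.57), cme-miR156a_L+1R+1 (without Nor 3, 1.41) and mtr-miR156e_L-1R+1 (without Ver 2, 1.57). The seventh, ath-miR156a-5p_L+1_1ss9AC, had 14, 0 and 65 reads in Ver, against 14, 166 and 11 reads in Nor, with a log2 fold change of -0.96 (edgeR adjusted p = 0.515, SE 1.25). Its replicates spread more than its groups differed, and its sign turned without Nor 2 (1.64).

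**Figure D2:**
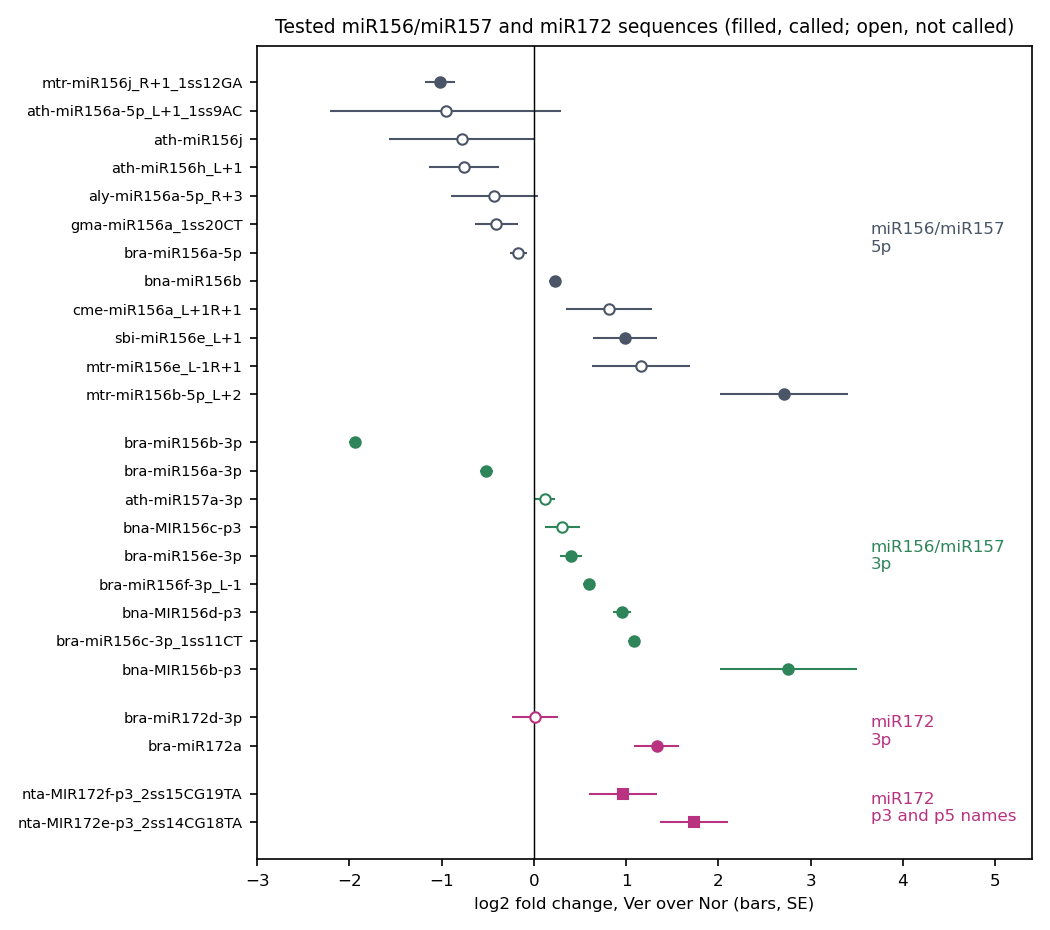
The log2 fold change of Ver over Nor (x axis, bars SE) for the 25 members that passed the count filter, by family and arm, with filled symbols for edgeR adjusted p under 0.05 and open symbols otherwise. The guide bra-miR156a-5p lies at -0.17, the 3p sequences spread from -1.94 to 2.76, and in miR172 bra-miR172a lies at 1.33 and bra-miR172d-3p at 0.01; squares mark the miR172 names at snRNA genes.

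The miR172 family was rare but higher in Ver. It held 0.0290, 0.0255 and 0.0297% of the miRNA reads in Ver, against 0.0176, 0.0146 and 0.0156% in Nor, so its groups did not overlap. The log2 fold change of the sum was 0.90 (edgeR adjusted p = 0.0002, SE 0.14), or 1.87-fold, and it was called in all 19 alternatives run, with log2 fold changes from 0.52 to 1.14. Without the nta-MIR172 pair, which lacks the miR172 seed, it was 0.58 (edgeR adjusted p = 0.00727). No alternative left out bra-miR172a and the nta-MIR172 pair together. The whole family rests on 949 reads in the 6 libraries, where miR156/miR157 had 451748. Of its 10 sequences, 4 passed the count filter and 3 of these were called higher, where 28.1% of all tested sequences were. Those called were bra-miR172a and the nta-MIR172 pair.

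The higher level was not shared by all members. The guide bra-miR172a, listed at MIR172A (A02:682163-682314, minus strand) and at a hairpin on A10 (A10:19930451-19930558, plus strand), had 82, 74.3 and 49 reads in Ver, against 48, 23 and 34 reads in Nor. This was 105, 123 and 86.1 RPM in Ver, against 47.1, 31.2 and 45.8 RPM in Nor, with every Ver library above every Nor library. Its log2 fold change was 1.33 (edgeR adjusted p = 0.00122, SE 0.25), and it was called in all 15 alternatives run on the sequences, from 1.22 to 1.53.

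The guide bra-miR172d-3p from MIR172D (A03:4903098-4903192, minus strand), which differs from bra-miR172a only at its 5′ base and has the same seed, was not called. It had 37.2, 46.6 and 52.7 RPM in Ver, against 44.2, 46.1 and 44.5 RPM in Nor. The groups overlapped and the log2 fold change was 0.01 (edgeR adjusted p = 0.973, SE 0.25). The ratio of bra-miR172a to bra-miR172d-3p reads was 2.83, 2.66 and 1.63 in Ver, against 1.07, 0.68 and 1.03 in Nor, a difference of 1.35 on the log2 scale with no overlap and an exact permutation p of 0.1 (adjusted p = 0.167 over 10). This pair too was chosen after its values were seen. The bra-miR172c-3p guide from MIR172C (A09:35246337-35246488, plus strand) was almost unread, with 0, 1.67 and 0 reads in Ver, against 9, 9 and 0 reads in Nor.

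The other sequences called higher in this family carry its name but little of its sequence. The pair nta-MIR172e-p3_2ss14CG18TA and nta-MIR172f-p3_2ss15CG19TA, named after tobacco, differ by 1 base in length. They lie 12 edits from the nearest miR172 sequence that the deposited table lists under an unmodified B. rapa or Arabidopsis name. All 4 of their listed loci overlap small nuclear RNA (snRNA) genes in the RefSeq annotation, and their names place them on both arms. The shorter had 78.2, 46.6 and 86.1 RPM in Ver, against 23.6, 27.1 and 12.1 RPM in Nor (log2 fold change 1.73, edgeR adjusted p = 0.00269, SE 0.37). The longer had 39.7, 29.9 and 63.3 RPM in Ver, against 26.5, 23.1 and 17.5 RPM in Nor (0.97, edgeR adjusted p = 0.0469, SE 0.37), and its call was lost without Ver 1 (1.11), Ver 3 (0.70), Nor 1 (1.196), Nor 2 (1.03) or Nor 3 (0.86). Together they made up 41.1, 30.7 and 47.8% of the reads under the miR172 name in Ver, against 30.0, 33.6 and 18.8% in Nor. Without them the miR172 sum was still called, with a log2 fold change of 0.58 (edgeR adjusted p = 0.00727), and the 3p sum without bra-miR172a was not (0.29, edgeR adjusted p = 0.304). With only the 6 miR172 sequences within 5 edits of such a listed sequence the log2 fold change was 0.52 (edgeR adjusted p = 0.0166). What these snRNA-locus reads derive from was not tested.

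**Figure D3:**
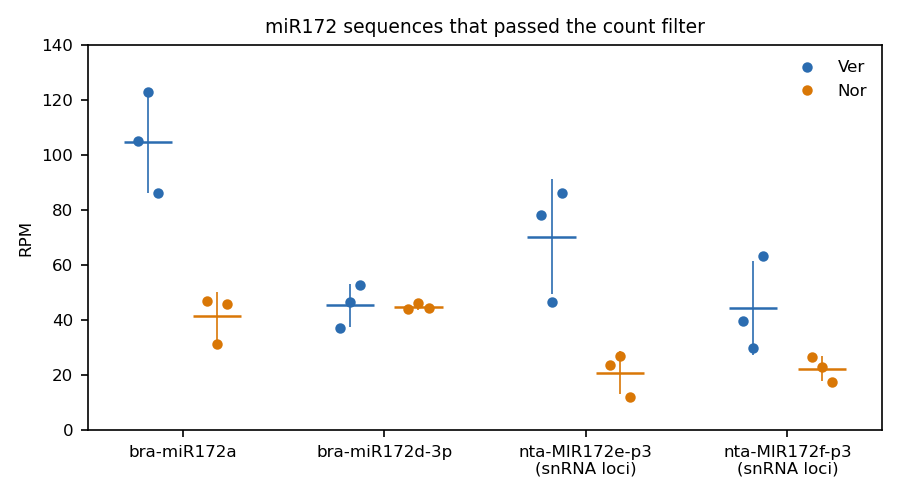
Level in RPM (linear axis from 0) of the 4 miR172 sequences that passed the count filter, in the 3 Ver (left, blue) and 3 Nor (right, orange) libraries, with lines for mean and SD. For bra-miR172a all Ver libraries (86.1 to 123 RPM) lie above all Nor libraries (31.2 to 47.1 RPM), for bra-miR172d-3p the groups overlap, and the 2 sequences at snRNA loci lie higher in Ver.

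The balance of the families was lower in Ver. The ratio of miR156/miR157 to miR172 reads was 330, 341 and 318.5 in Ver, against 620.3, 766 and 686 in Nor, a mean of 329.8 ± 11.5 in Ver and 691 ± 73 in Nor (SD, n = 3 each). The groups did not overlap and the difference on the log2 scale was -1.06. The exact permutation p was 0.1, the smallest this design allows (adjusted p = 0.167 over 10, which include both pairs chosen after their values were seen). The difference was smaller without the sequences at snRNA genes (-0.79) and when only the first listed row of each sequence was counted (-0.66), with no overlap in either case. Between the guide arms, 5p of miR156/miR157 against 3p of miR172, the ratio was 398, 317 and 449 in Ver, against 648, 824.25 and 750.4 in Nor (difference -0.94, exact permutation p = 0.1). That contrast rested on the abundant sequences, since it was -0.04 (exact permutation p = 0.9) without the most abundant sequence of each family.

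**Figure D4:**
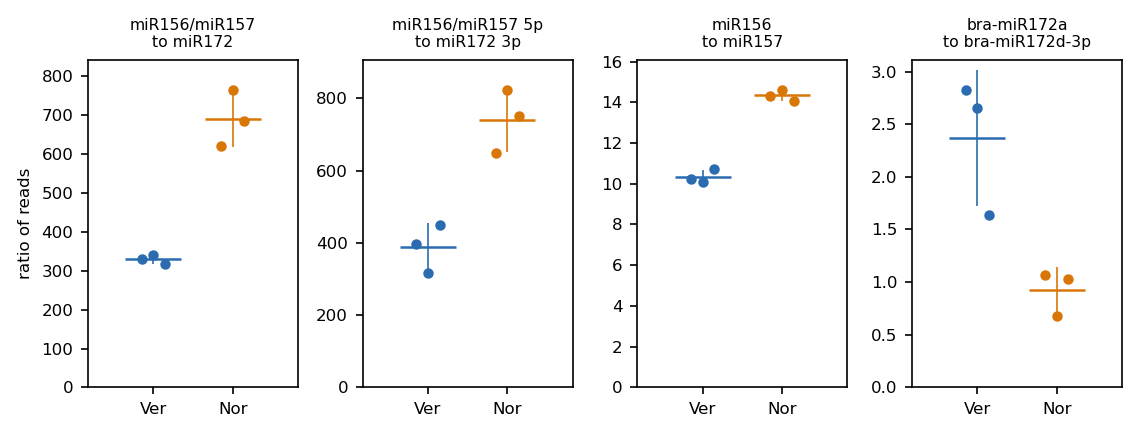
Ratios of reads within each library (y axes from 0, no unit) in the 3 Ver (left, blue) and 3 Nor (right, orange) libraries, with lines for mean and SD. In the 3 panels of miR156/miR157 to miR172, of the guide arms and of miR156 to miR157 all Ver libraries lie below all Nor libraries, and for bra-miR172a to bra-miR172d-3p all lie above.

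The 5p strand of miR172 was near the limit of what was listed. The 4 sequences listed as 5p held 3.13, 0 and 3.37% of miR172 reads in Ver, against 10, 6.36 and 23.9% in Nor (exact permutation p = 0.1, adjusted p = 0.167 over 10). That was a difference of -11.3 percentage points, and -6.02 without Nor 3, but no miR172 5p sequence had more than 13 reads in a library. As a percentage of all miRNA reads, the 5p sums of the groups overlapped. The sequences with the seed CAGCATC, bna-MIR172c-p5 and bra-miR172d-5p, had 7, 0 and 6 reads in Ver, against 0, 7 and 15 in Nor, and overlapped too. All 17 of the 5p reads in Nor 1 were of lus-miR172j_L+1R-1 (8) and aly-MIR172a-p5_1ss2CT (9). The most read 5p sequence in a library, lus-miR172j_L+1R-1, maps to the strand opposite MIR172D and opposite the hairpin of bna-MIR172c-p5, and had 0 reads in each Ver library, against 8, 0 and 13 reads in Nor. In all, 5 of the 41 sequences lay 9 to 12 edits from the nearest sequence of their family listed under an unmodified B. rapa or Arabidopsis name. Among them was the pair at snRNA genes. No untested member was at 5 reads or fewer in all libraries of a group and above 5 in every library of the other.

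The 6 other families known in Arabidopsis or other plants for effects on phase change or flowering (miR159, miR169, miR319, miR390, miR399 and miR824) were counted for comparison. Of their 44 tested sequences, 18 were called higher and 17 lower in Ver, with a median log2 fold change of -0.04, where 28.1% of all tested sequences were called higher and 32.8% lower with a median of -0.19. By family, miR159, which acts on GAMYB-like factors, had 7 of 8 tested sequences called higher (median 0.92) and none lower. The miR169 family, which acts on NF-YA factors, had 11 of 15 called lower (median -1.53) and none higher. All 3 tested miR824 sequences, a family that acts on AGL16 in Arabidopsis, were called higher (median 0.87). The miR319 family had 5 of 10 called higher and 4 lower, and miR390 had 3 of 7 higher and 2 lower, while the 1 miR399 sequence was not called.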

How the data were processed

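Small RNA of 6 libraries (3 Ver, 3 Nor) was sequenced by the authors after TruSeq library preparation. Per the methods of the study, common RNA families were removed, sequences of 18 to 25 nt were kept, and miRBase precursors were searched by BLAST. Mapping to the genome is stated in the header of the deposited table; versions of the counting tools are not given in the sources used here. The raw values the authors deposited are estimated counts, with reads divided over the rows that list a sequence by a rule not stated. The normalized values the authors deposited are a signal, the raw value times a factor per library, and were used only as alternatives. Depth was 589061 to 968483 miRNA reads per library, and counting error is understated because the reads carried no molecular identifiers.

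Rows of a mature sequence were added and rounded. The quasi-likelihood test of edgeR 4.0.16 (R 4.3.3) was fitted over the whole table with TMM factors, the default count filter, group as the only term and Benjamini-Hochberg adjustment over all features tested. The biological coefficient of variation was 0.146. SE was derived from the log2 fold change and the F statistic. Sums by family, by miR156 and miR157, and by arm were fitted in tables of their own, each with its own TMM factors. An arm came from the name or, where the name gave none, from its place in the deposited precursor. Ratios and shares were compared by two-sided exact permutation, with adjustment over the 10 computed. These include both pairs chosen after their values were seen, so the adjusted p of the others depends on that choice. DESeq2 1.42.0, limma 3.58.1 on log2 of the normalized value plus 0.5, other scalings, filters, a replicate block and libraries left out served as alternatives. The fit was tested on simulated data.

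All members that passed the filter were named. Members that did not pass were to be named if a group had at most 5 reads and the other over 5 in every library. No member met this, and bra-miR172c-3p and the miR172 5p sequences were named outside it. The 3 other sequences most like each family sum were named as well. Edit distances were taken to the 12 member sequences listed under an unmodified B. rapa or Arabidopsis name, not to all miRBase entries. These distances and the snRNA overlap were examined after the data were seen. The members and lists were chosen with earlier results of these data known. The miRNA table has no protein-coding markers, so the tissue was not checked.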

Additional observations from a re-analysis of the deposited data

How the results depend on the processing

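The miR172 sum kept its direction and its call in all 19 alternatives, none of which left out bra-miR172a and the pair at snRNA genes together. The alternative named rows not added counted only the first listed row of each sequence and dropped the reads of its other rows. The miR156/miR157 sum (main log2 fold change -0.17, not called) was called lower with library totals (-0.24), with at least 10 reads in every library (-0.31), with rows not added (-0.11), with names without a substitution only (-0.32) and without the most abundant sequence (-0.36), and its sign turned with DESeq2 size factors (0.084) and in DESeq2 (0.031). With each library left out in turn it ranged from -0.28 to 0.047, the miR172 sum from 0.75 to 1.03, the count of members called from 12 to 17, and the log2 difference of the miR156/miR157 to miR172 ratio from -1.14 to -0.985. The thresholds of the study (log2 change beyond 1 either way, p not adjusted and at most 0.05) called 7 members instead of 14. Signs also turned for the miR156 sum with DESeq2 size factors (0.045), for the 3p sum with rows not added (0.069), for the 5p sum with library totals (-0.16), the factors of the authors (-0.0024), limma (-0.0092), no count filter (-0.20), a minimum of 10 reads (-0.063), names without a substitution (-0.11) and without Ver 3 (-0.087) or Nor 3, where leaving out each library gave up to 0.20, for bra-miR172d-3p with library totals (-0.012), a minimum of 10 reads (-0.025) and without Ver 3 (-0.049, with up to 0.20 without the others), for bra-miR156a-5p without Ver 2 (0.00051), for ath-miR156a-5p_L+1_1ss9AC without Nor 2 (1.64, with down to -2.98 without the others), and, with rows not added, for the 3p share of miR156/miR157 (1.04 percentage points) and the share of bra-miR156a-5p (-1.61 percentage points). The cause was not tested. Over the 405 sequences tested, the median change (log2) was -0.19 with TMM and -0.06 with the factors of the authors, so changes of that size depend on the scaling. The alternatives on edit distance and on snRNA genes were chosen after seeing the data.

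Libraries with the same number in Ver and Nor shared only a number. Correlations of their deviations were 0.13, -0.08 and 0.03, and not every library correlated best with its own number. With the replicate number as a block, 9 members were called instead of 14. The lost calls were bna-miR156b (edgeR adjusted p = 0.0512), mtr-miR156b-5p_L+2 (0.052), bna-MIR156b-p3 (0.0616), sbi-miR156e_L+1 (0.083) and nta-MIR172f-p3_2ss15CG19TA (0.137), and those of the miR156 (0.135), miR157 (0.0903) and 3p (0.0759) sums were lost too. Under the block, the log2 fold changes were -0.17 for miR156/miR157 (edgeR adjusted p = 0.239) and 0.90 for miR172 (edgeR adjusted p = 0.00307).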

Other observations

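The sequences outside the families whose log2 level ran most like the miR156/miR157 sum over the 6 libraries were bna-miR167d_R+1 (Pearson's r = 0.99), bna-MIR169a-p3 (0.99) and hbr-MIR6483-p5_1ss6TC (0.98). All of them were called lower in Ver, with log2 fold changes of -0.56, -0.24 and -1.55. Those most like the miR172 sum were cas-miR408_L-1R+1 (0.99), aly-miR171b-5p (0.99) and ath-miR164b-3p_1ss16AC (0.99), with log2 fold changes of 1.27, 1.04 and 0.9997, called higher in Ver. These correlations are descriptions over 6 libraries that share the split into groups, and no test was made of them.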
